A study of Rattus norvegicus with 7 samples.

Results

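Lipid droplet coat and fusion proteins are described here as 9 listed genes: the perilipins Plin1 to Plin5, the fusion proteins Cidea and Cidec, and the biogenesis proteins Fitm2 and Bscl2. They were picked by gene symbol, and 8 of the 9 had a row under that symbol among the 17246 genes read. Plin3 had none. A row named AABR07066529.1, which RefSeq lists as a synonym of Plin3, is given separately and is not counted among the 8. All 8 passed the filter on low counts.

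RNA was sequenced from meibomian glands, which secrete lipid along the eyelid margin, of wild-type female Sprague-Dawley rats aged 3 months. There were 4 control libraries, labelled as not treated, and 3 libraries from rats whose shaved upper lids received ultraviolet B light (UVB) at 300 mJ/cm2 in 5 min per day on 5 days. The labels give the shaving and irradiation text for every library, do not say whether control lids were shaved, and do not say how long after the last exposure the glands were taken. Nothing in the labels says that the libraries came from separate animals, so the p-values measure the spread between these libraries, which may be technical. The 4 controls carry the letters a to d here and the 3 UVB libraries a to c. The letters pair nothing.

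A lipid droplet is a core of neutral lipid under a single layer of phospholipid. Droplets form at the endoplasmic reticulum, where seipin (the product of Bscl2) and FIT2 (the product of Fitm2) act. Perilipins then coat the surface and control the access of lipases, and CIDE proteins pass lipid from small droplets to large ones at their contact sites. Meibocytes, the secretory cells of the gland, fill with droplets as they mature and then break down whole to release meibum. Plin1, Plin4 and Cidec are best known from fat cells, Plin2 and Plin3 from most tissues, Plin5 from muscle and other tissues that oxidise fat, and Cidea from brown fat and sebaceous cells.

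Cidea, Plin2 and Plin4 fell together after UVB, to 70.9%, 73.3% and 73.5% of their control means. Cidec fell further from a very low level. The biogenesis genes Bscl2 and Fitm2 and the perilipin gene Plin5 were not called. Every UVB library was above every control for Bscl2 and Plin5, and Fitm2 overlapped. Of the 8 genes, 4 were called lower and 0 higher by edgeR's quasi-likelihood test at an adjusted p of 0.05, against 6.74% of the 13709 genes tested called lower, 6.30% called higher and 13.0% called in either direction. With DESeq2, 5 of the 8 were called lower and 1 higher, and with limma-voom 3 were called lower and 0 higher. Over all genes, in either direction, DESeq2 called 2451, limma-voom 1813 and edgeR 1787. The call of Cidec was lost in 9 of 16 alternatives run. The median log2 fold change of the 8 was -0.45, with 3 above 0, and that of all genes tested was -0.0058.

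Levels of different genes were compared as the deposited TPM, which corrects for transcript length. Cidea was the most abundant of the 8, at 2405 ± 156 TPM (SD, n = 4) in controls and 1710 ± 94.1 TPM (SD, n = 3) after UVB, and it ranked between place 19 and place 51 of the genes read here in the single libraries. Plin2 followed at 1549 ± 91.7 TPM (SD, n = 4) in controls and 1139 ± 77.2 TPM (SD, n = 3) after UVB. Cidea was above Plin2 in 7 of 7 libraries, although their ranges over all libraries overlapped. Together these genes made up most of the summed TPM of the 8: Cidea took 47.5% to 54.9% of it and Plin2 30.5% to 36.0%.

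The remaining members were scarcer. Bscl2 averaged 297 TPM over the 7 libraries and Fitm2 223 TPM, with overlapping ranges and Bscl2 above Fitm2 in 7 of 7 libraries. Plin4 came next at 28.5 TPM and did not overlap its neighbours. Plin5 (4.23 TPM), Cidec (1.70 TPM) and Plin1 (1.21 TPM) formed the low end, where neighbouring ranges overlapped. The order by mean TPM was the same when each library in turn was left out.

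**Figure D1:**
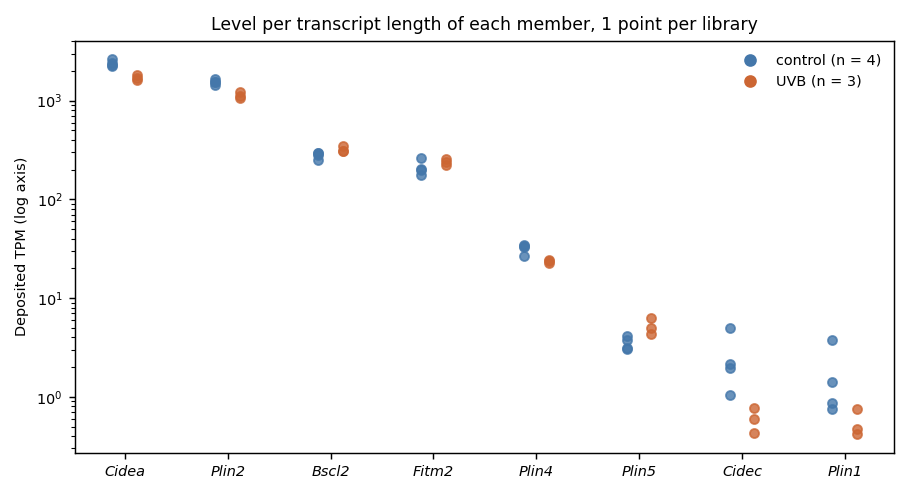
Deposited TPM of each of the 8 genes on a log axis, 1 point per library, controls (n = 4) in blue and UVB (n = 3) in orange, ordered by the mean over all libraries. Cidea and Plin2 lie above 1000 TPM in every library, and Cidec and Plin1 lie under 5 TPM.

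The fusion protein gene Cidea (NCBI gene 291541) measured 1296, 1104, 1166 and 1146 CPM in controls a to d and 774, 898 and 833 CPM in UVB a to c. CPM here are counts scaled to the library total with TMM factors. Every UVB library was below every control. This gave a log2 fold change of -0.50 (SE 0.085, adjusted p = 0.00823, edgeR).

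Plin2 (NCBI gene 298199), which encodes the perilipin that coats droplets in most cell types, measured 1697, 1565, 1763 and 1674 CPM in controls a to d and 1296, 1174 and 1211 CPM in UVB a to c. The groups did not overlap. This gave a log2 fold change of -0.45 (SE 0.077, adjusted p = 0.00826, edgeR).

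Plin4 (NCBI gene 363331), whose product binds droplets through a long repeat, measured 115.9, 93.0, 115.1 and 119.9 CPM in controls a to d. In UVB a to c it measured 83.3, 79.4 and 82.1 CPM, again below every control and within a narrow range. The log2 fold change was -0.44 (SE 0.088, adjusted p = 0.0133, edgeR). Cidea, Plin2 and Plin4 kept their calls in each of the 17 alternatives run, with log2 fold changes from -0.55 to -0.44 for Cidea, from -0.49 to -0.41 for Plin2 and from -0.52 to -0.40 for Plin4. Plin4 overlaps Hdgfl2 in RefSeq (GRCr8). Strand handling is not given in the sources used here, so its count is uncertain where the genes overlap.

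The row named AABR07066529.1 measured 200, 202, 206 and 208 CPM in controls a to d and 174, 180 and 156 CPM in UVB a to c, without overlap. Its log2 fold change was -0.27 (SE 0.064, adjusted p = 0.0274, edgeR). The call ended when any control but control a, or either UVB a or UVB c, was left out (adjusted p from 0.0527 to 0.0828). If the synonym holds, this row is Plin3, a perilipin of small and newly formed droplets; the files give it no gene name, so it stays uncertain.

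**Figure D2:**
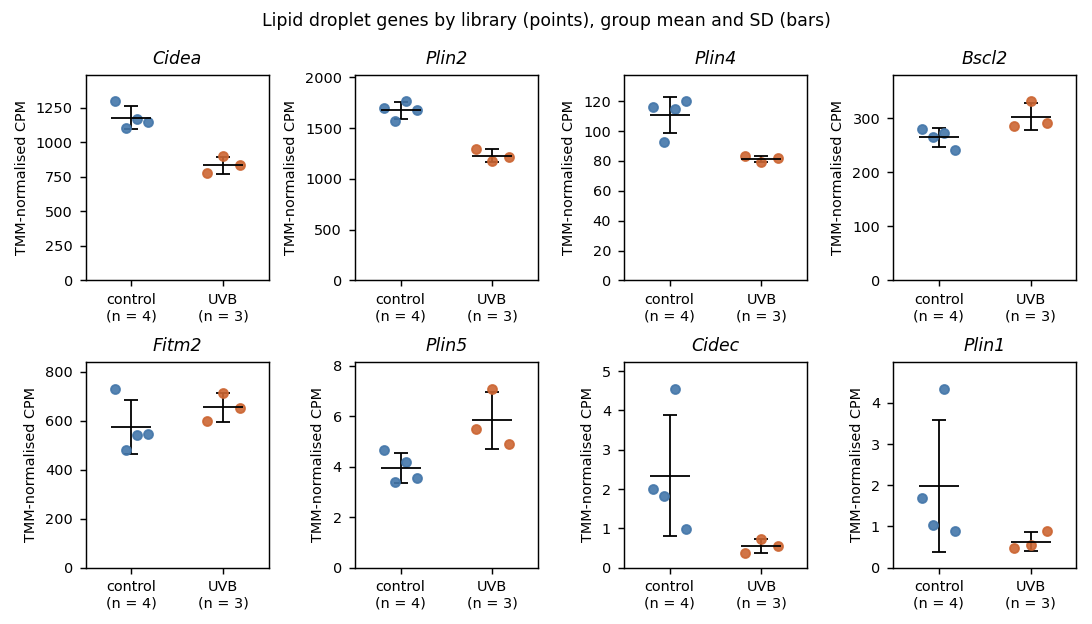
TMM-normalised CPM of the 8 genes, each panel with its own axis from 0, 1 point per library, with the group mean and SD as bars (control n = 4, UVB n = 3). The UVB libraries of Cidea, Plin2, Plin4, Cidec and Plin1 lie below every control, those of Bscl2 and Plin5 above every control, and Fitm2 overlaps.

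The promoters of 3 members called lower are shown because these genes fell in the same comparison. Each window runs from 250 bases before to 50 bases after the start of a RefSeq transcript in assembly GRCr8, on the minus strand, 5′ to 3′: chr5:106228969-106229268 for Plin2, chr9:1025200-1025499 for Plin4 and chr4:148137066-148137365 for Cidec. Plin2 has 2 such windows and Plin4 has 5 in the table, of which the first listed is shown. Capitals mark matches, on either strand, to any of 7 motifs searched. These were the nuclear receptor motif (AGGTCA), its direct repeat with 1 base between the copies (DR1, which contains the first motif at both ends), the E-box (CACGTG), the GC box (GGGCGG), the TATA box (TATAAA), the CCAAT box (CCAAT) and the AP-1 site (TGANTCA).
Plin2: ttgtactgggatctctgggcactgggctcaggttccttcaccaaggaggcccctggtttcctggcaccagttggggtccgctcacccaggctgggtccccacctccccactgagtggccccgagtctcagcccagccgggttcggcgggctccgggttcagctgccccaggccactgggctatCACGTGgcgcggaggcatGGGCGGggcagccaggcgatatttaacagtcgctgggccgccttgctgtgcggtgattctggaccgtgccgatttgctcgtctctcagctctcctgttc
Plin4: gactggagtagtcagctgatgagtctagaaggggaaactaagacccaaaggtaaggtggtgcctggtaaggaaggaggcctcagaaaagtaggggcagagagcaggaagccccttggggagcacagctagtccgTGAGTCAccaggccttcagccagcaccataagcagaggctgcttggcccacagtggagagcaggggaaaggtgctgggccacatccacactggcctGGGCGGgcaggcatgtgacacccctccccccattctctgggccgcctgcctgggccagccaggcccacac
Cidec: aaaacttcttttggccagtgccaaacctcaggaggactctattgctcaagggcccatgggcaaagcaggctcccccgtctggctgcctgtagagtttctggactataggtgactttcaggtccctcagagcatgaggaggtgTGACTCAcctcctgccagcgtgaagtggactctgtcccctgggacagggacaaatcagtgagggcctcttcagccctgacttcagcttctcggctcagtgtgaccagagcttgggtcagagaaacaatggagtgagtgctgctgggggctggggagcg

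In the Plin2 window the capitals are an E-box, CACGTG, starting at base -67 from the transcript start and a GC box, GGGCGG, starting at base -49. The Plin4 window holds the AP-1 motif TGANTCA at base -116 and GGGCGG at base -20, and the Cidec window holds TGANTCA at base -108. The Cidea window, not shown, holds GGGCGG at bases -57 and -52 and CCAAT at base 3, and none of the other motifs. Of the 8 members' windows, called or not, 6 held GGGCGG, 5 CCAAT, 2 TGANTCA and 1 CACGTG. Among 27457 promoter windows of the same length, 1 per gene, 6.65% held CACGTG, 34.9% held GGGCGG, 37.7% held CCAAT and 7.33% held TGANTCA. DR1, the repeat to which PPAR and RXR receptors bind, was found in 0.0583% of all windows and in 0 of the 8 members' windows. Its single copy, AGGTCA, was found in the windows of 2 of the 8, Plin5 and Bscl2, neither of which was called, and in 15.7% of all windows. These are matches of letters within 300 bases and say nothing of binding.

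Cidec (NCBI gene 500292), the fusion protein of white fat cells, measured 2.01, 1.82, 4.55 and 0.98 CPM in controls a to d. In UVB a to c it measured 0.38, 0.74 and 0.54 CPM, which rests on 8, 19 and 14 counts. Every UVB library was below every control, and control c was more than 2-fold above the next control. The log2 fold change was -2.08 (SE 0.54, adjusted p = 0.0370, edgeR), a 4.22-fold fall. This call was lost in 9 of 16 alternatives, among them those without control a (adjusted p = 0.0526), control b (0.0607), control c (0.0567), UVB a (0.108), UVB b (0.0823) or UVB c (0.0972). Without control c the log2 fold change was -1.51.

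Plin1 (NCBI gene 25629), the main perilipin of fat cells, measured 1.68, 1.03, 4.35 and 0.90 CPM in controls a to d and 0.47, 0.54 and 0.89 CPM in UVB a to c. Its groups did not overlap as CPM, by a margin of 0.01 CPM between control d and UVB c, and they met at 0.75 TPM in the deposited TPM. The log2 fold change was -1.65 (SE 0.61) and did not pass (adjusted p = 0.113, edgeR). It was -0.90 without control c (adjusted p = 0.195), and DESeq2 called the gene (0.0345).

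Some genes of fat cells were high in the same library as Cidec and Plin1. Control c was the highest library for both members, and also for 7 of 11 adipocyte and 6 of 8 skeletal muscle marker genes. Adipoq, which encodes the fat cell hormone adiponectin, measured 9.01, 5.41, 17.60 and 3.04 TPM in controls a to d and 1.85, 4.07 and 3.81 TPM in UVB a to c, with a log2 fold change of -1.43 (SE 0.57, adjusted p = 0.140, edgeR). Lep, the gene of leptin, was at 0.06 to 0.89 TPM in controls and 0 to 0.10 TPM after UVB.

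As a whole the adipocyte list did not follow this pattern. Of its 11 genes 7 were tested, with 1 called higher, Trarg1, a fat cell gene of glucose transport (log2 fold change 0.55, SE 0.13, adjusted p = 0.0293, edgeR), and 0 called lower. That call was lost without control c, UVB a or UVB c. Of the 7 log2 fold changes, 3 were above 0. Fabp4 and Cfd, also highest in control c, changed little. Their log2 fold changes were -0.08 (SE 0.14, adjusted p = 0.735, edgeR) and -0.02 (SE 0.18, adjusted p = 0.946). Retn stood at 1.60 (SE 0.69, adjusted p = 0.161), with 10.51 TPM in UVB c against 1.86 and 1.33 TPM in UVB a and b. The summed TPM of the list was 380.1 to 430.1 in controls and 379.8 to 482 after UVB, most of it from Thrsp, a gene of fatty acid synthesis, at 257 to 278 TPM in controls. Of the markers, Ucp1 had at most 3 counts in any library. The part of fat cells in the change of Cidec and Plin1 was not tested.

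**Figure D3:**
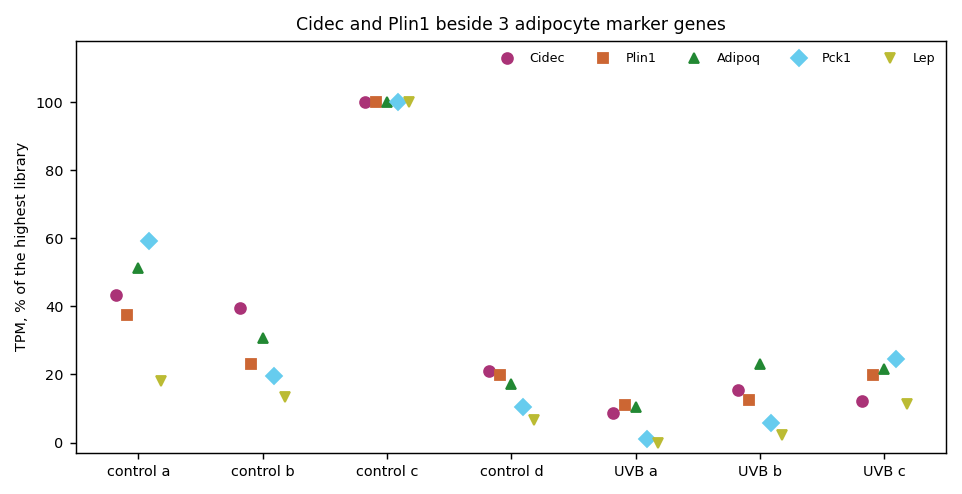
TPM of Cidec, Plin1 and the adipocyte genes Adipoq, Pck1 and Lep in each library, as a percentage of each gene's highest library. All 5 are highest in control c; in UVB a to c none exceeds 24.6% of its highest library, while control d lies between 6.74% and 21.0%. The 3 adipocyte genes were chosen after their values were seen.

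Neither gene of droplet formation was called. Bscl2 (NCBI gene 361722) measured 280, 264, 272 and 241 CPM in controls a to d and 285, 331 and 290 CPM in UVB a to c. Each UVB library was above each control, by a small margin between UVB a and control a. The log2 fold change was 0.19 (SE 0.077, adjusted p = 0.129, edgeR), and it was not called in any of 17 alternatives. Bscl2 overlaps Gng3 in GRCr8.

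Fitm2 (NCBI gene 311617) measured 731, 481, 540 and 546 CPM in controls a to d and 597, 715 and 654 CPM in UVB a to c. The groups overlapped through control a, the highest of all 7 libraries. The log2 fold change was 0.19 (SE 0.14, adjusted p = 0.385, edgeR). Without control a it was 0.33 and passed (adjusted p = 0.0397). Fitm2 overlaps LOC103691964 in GRCr8.

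Plin5 (NCBI gene 501283), the perilipin that links droplets to mitochondria, measured 4.67, 3.41, 4.17 and 3.55 CPM in controls a to d and 5.50, 7.08 and 4.89 CPM in UVB a to c. Every UVB library was above every control. The UVB mean was 147.5% of the control mean, a log2 fold change of 0.56 (SE 0.18) that did not pass (adjusted p = 0.0748, edgeR). DESeq2 called it (0.0439), and without UVB b the log2 fold change was 0.40 (0.237).

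Skeletal muscle, in which Plin5 is abundant, was present in the dissected tissue. Of its 8 marker genes tested 1 was called, Actn3, the gene of a fast fibre protein (log2 fold change -1.77, SE 0.43, adjusted p = 0.0361, edgeR). That call was lost whichever control was left out, and without UVB b. The summed TPM of the list was 2610 to 3744 in controls and 1715 to 3177 after UVB, with overlap. The median log2 fold change of the list was -0.39, with 0 of 8 above 0, where that of Plin5 was 0.56. The part of muscle in the values of Plin5 was not tested.

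Over all 8 genes, the groups did not overlap as CPM in 5 with UVB below and in 2 with UVB above. Over all genes tested these shares were 13.8% below and 12.8% above, 26.6% in all. In the deposited TPM, 4 of the 8 members were below and 2 above, because Plin1 overlapped there.

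**Figure D4:**
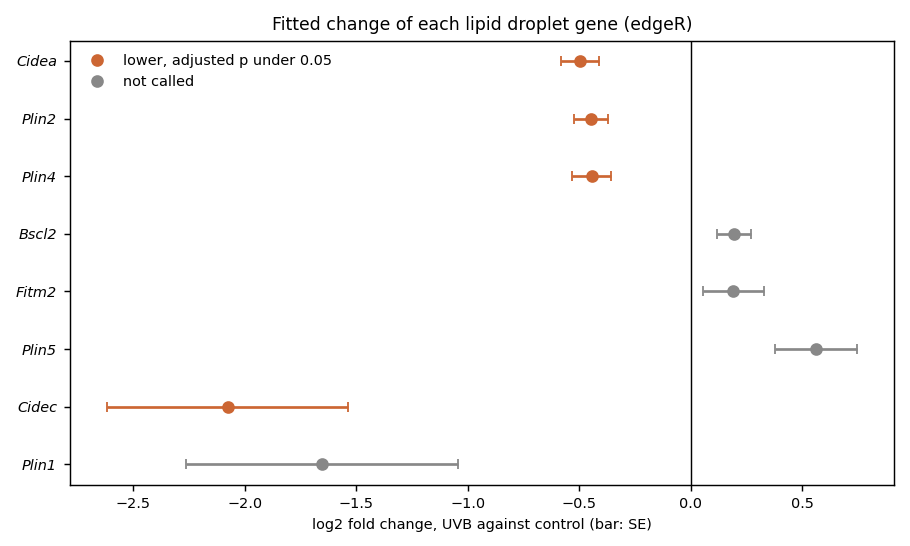
Log2 fold change of each gene, UVB against control, with its SE from edgeR, and orange for the genes called lower at an adjusted p of 0.05. Cidea, Plin2 and Plin4 lie close together between -0.50 and -0.44 with small errors, and Cidec and Plin1 lie at -2.08 and -1.65 with wide ones.

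Ratios between members within a library need no scaling between libraries and were described without a test. The ratio of Plin2 to Cidea was 0.594 to 0.686 in controls and 0.594 to 0.758 after UVB, so the groups overlapped. The ratio of Bscl2 to Plin2 was 0.165 to 0.194 in controls and 0.252 to 0.322 after UVB. That of Fitm2 to Plin2 was 0.121 to 0.170 in controls and 0.183 to 0.242 after UVB.

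In both of these ratios every UVB library was above every control, with mean log2 differences of 0.64 for Bscl2 and 0.65 for Fitm2. Plin5 relative to Plin2 differed by 1.00 on the log2 scale, also without overlap. The ratios to Plin2 share its fall (log2 fold change -0.45, edgeR), so they largely restate the changes given above. They and the ratio of Plin2 to Cidea were chosen after the values were seen. Cidea relative to Cidec ran from 491 to 2230 in controls and from 2339 to 3752 after UVB. The ratios to Plin1 overlapped between the groups, with Plin2 442 to 2047 times Plin1 in controls and 1501 to 2910 times after UVB, and Plin4 9.03 to 45.9 times in controls and 31.7 to 58.5 times after UVB. Plin2 was 13.6 to 14.97 times the row AABR07066529.1 in controls and 11.4 to 13.7 times after UVB, which overlapped.

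**Figure D5:**
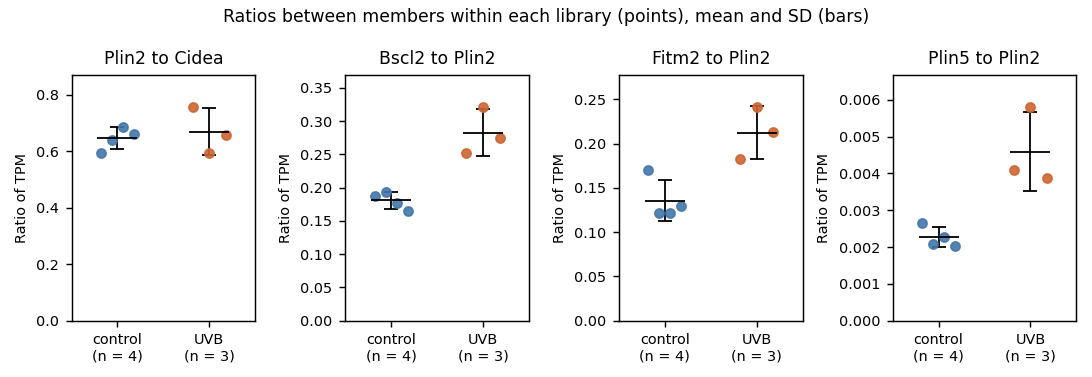
Ratios of TPM between members within each library, axes from 0, 1 point per library, with the group mean and SD as bars. Plin2 to Cidea overlaps between the groups, while Bscl2, Fitm2 and Plin5 relative to Plin2 are higher in each UVB library than in any control; these 4 pairs were chosen after the values were seen.

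Genes that act with the coat proteins mostly did not pass the test, which was also so of all genes tested. Of those, 13.0% were called, 6.30% higher and 6.74% lower. Of 20 genes of droplet lipid synthesis and biogenesis, 18 were tested, with 1 called higher, 1 lower and a median log2 fold change of -0.03. Dgat1, which makes triglyceride, rose in every UVB library: it measured 17.0, 18.8, 17.3 and 17.9 CPM in controls a to d and 25.4, 28.0 and 27.4 CPM in UVB a to c, a change of 0.60 on the log2 scale (SE 0.077, adjusted p = 0.00333, edgeR), and was called in each of 17 alternatives. Lpin2, a phosphatidate phosphatase gene, fell by 0.37 on the log2 scale (SE 0.083, adjusted p = 0.0221, edgeR), a call lost when control c, control d, UVB b or UVB c was left out. Dgat2 was far more abundant than Dgat1, at 323 against 16.0 TPM in controls, and was not called (log2 fold change -0.16, SE 0.13, adjusted p = 0.464).

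In the lipolysis list, 10 of 12 genes were found and tested, with 1 called higher, 0 lower and a median of 0.16. Pnpla2 and Hilpda were not analysed here, so nothing is said of their levels. The gene called was G0s2, which encodes an inhibitor of triglyceride lipase. It measured 29.8, 23.8, 32.1 and 34.1 CPM in controls a to d and 46.7, 45.0 and 36.6 CPM in UVB a to c, a rise of 0.51 on the log2 scale (SE 0.13, adjusted p = 0.0330, edgeR), with every UVB library above every control. The call was lost without control a or c and without UVB a or b. Abhd5, the lipase activator that perilipins hold at the droplet, had a log2 fold change of 0.27 (SE 0.10, adjusted p = 0.116).

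Of 20 other droplet surface genes, 18 were tested, with 0 called higher, 1 lower and a median of -0.01. The gene called was Spart, the gene of a protein of droplet turnover, at -0.28 (SE 0.078, adjusted p = 0.0441, edgeR), a call lost in 10 of 17 alternatives, 5 of which left out 1 library (control b, c, d or UVB b, c). Cideb, the liver relative of Cidea, was too low to be tested. Lpin2, Dgat2, Spart and Ppard overlap other RefSeq genes, as do Elovl3, Tie1, Mrc1, Dcn and Col1a1, which are given below. Their counts are uncertain in the same way as that of Plin4.

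Of 12 regulators of droplet coat genes, 1 was called higher and 0 lower, with a median of 0.02. Ppard, a nuclear receptor that responds to fatty acids, rose by 0.30 on the log2 scale (SE 0.079, adjusted p = 0.0355, edgeR), a call lost when any 1 library but control a was left out. Pparg, the receptor known to drive perilipin and CIDE genes in fat cells, was not called (log2 fold change 0.22, SE 0.090, adjusted p = 0.136).

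Markers of meibocytes were high in every library, with a summed TPM of 44825 to 54465 in controls and 41856 to 48550 after UVB. Of 11 genes, 2 were called lower and 0 higher, where 6.74% and 6.30% of all genes tested were. The median log2 fold change of the 11 was -0.04. Those called were the wax synthesis genes Awat2 (-0.66, SE 0.093, adjusted p = 0.00453, edgeR) and Awat1 (-0.33, SE 0.090, adjusted p = 0.0404), the latter lost without control a, c or d and without any 1 UVB library. The desaturase gene Scd was not called (-0.04, SE 0.14, adjusted p = 0.879), and its counts were not whole in any of the 7 libraries, so reads may be shared with a similar gene. Members of this list differed in direction, with 5 of the 11 log2 fold changes above 0. Among these were Elovl3 (0.54, SE 0.15, adjusted p = 0.0506, edgeR) and Mc5r (0.82, SE 0.37, adjusted p = 0.192), which were not called. In bulk tissue, fewer meibocytes and less droplet gene RNA per meibocyte cannot be told apart.

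Markers of other cell types were called in the following lists, where 6.30% of all genes tested were called higher and 6.74% lower. The summed TPM did not overlap between the groups for the endothelial list and overlapped for the other 3. Several of these calls were lost when 1 library was left out: Tie1 and Cdh5 without control c, UVB a or UVB c, and Cdh5 also without control a or b. Mrc1 was lost without control a, c or d and UVB a or c, and Dcn without any control but a, or UVB a or c. Krt2 was lost without control c or d and UVB b or c, and Lce1m whichever library was left out. Endothelial markers had 3 of 7 called higher (Vwf, Tie1 and Cdh5, summed TPM 64.9 to 82.3 in controls and 87.9 to 99.9 after UVB). Fibroblast markers had 3 of 6 called higher (Lum, Pdgfra and Dcn, summed TPM 943 to 1466 and 1241 to 1978), and macrophage markers 4 of 10 (led by Cd163, C1qb and Mrc1, summed TPM 178.0 to 501 and 208 to 349). Epidermis markers had 3 of 9 called lower (Krt77, Krt2 and Lce1m, summed TPM 2652 to 3273 and 2742 to 4223). Members of a list differed in direction: Krt1 stood at 131% of its control mean (adjusted p = 0.110, edgeR) in the epidermis list, and Cd68 at 75.4% (0.186) and Lyz2 at 58.8% (0.359) in the macrophage list. Log2 fold changes were above 0 for 5 of 6 fibroblast and 6 of 7 endothelial markers. The exceptions were Col1a1 at 71.7% of its control mean (adjusted p = 0.260, edgeR) and Emcn at 87.0% (0.250). The part of these cell types in the changes of the droplet genes was not tested.

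Among the tested genes whose log2 CPM was most like that of Cidea, the member with both the highest TPM and the smallest p-value, were Galns (Pearson r = 0.993) and LOC317456 (0.991), as a description over 7 libraries that share the group difference. Galns encodes a lysosomal sulfatase.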

How the data were processed

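Meibomian gland RNA was compared between 4 control and 3 UVB libraries. The submitters' processing notes name FastQC, Trimmomatic, DRAGEN and Picard and the build rn7, with no roles or versions; annotation and strand handling are not given in the sources used here. The authors deposited expected counts (not normalised; 12.5% of values are not whole) and TPM values. The deposited TPM of a library sum to 82.0% to 84.1% of the full TPM total, so genes not used here hold the rest. Commas inside gene names move cells, so values were located by counting columns back from the last one, and 5 rows of each table whose last 7 cells were not all numbers were left out. Library totals ran from 20680237 to 28784941 counts.

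Counts were rounded and tested with edgeR 4.0.16 (R 4.3.3): robust quasi-likelihood, TMM factors, filterByExpr, which kept 13709 genes, and Benjamini-Hochberg adjustment over all of them, threshold 0.05, two-sided. Standard errors are the log2 fold change over the square root of F. The other settings tried were limma-voom (limma 3.58.1), DESeq2 1.42.0, other scalings and filters, unrounded counts, and leaving out each library. Limma was also run on log2(TPM + 1), filtered at mean TPM 1 or unfiltered, and on log2(TPM + 0.1) with that filter. The fits were tested on simulated data.

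The members, gene lists and tests were chosen with earlier results of these data known. Named genes are the members, up to 6 called genes per pathway list, up to 3 per marker list, and the 3 genes most like Cidea, of which 1 is not reported here; others named from a list were added after their values were seen. Tmem159 stood for Ldaf1, and 9 further listed genes were not analysed here. Promoter sequences and gene overlaps are from RefSeq, assembly GRCr8, where all 8 members were found; no sequence of Cidea is printed.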

Additional observations from a re-analysis of the deposited data

Results flagged for a closer look

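Dixon's gap, the distance of the extreme control from its nearest neighbour over the range of the 4 controls, was examined for 42 values, and 3 exceeded Dixon's 95% critical value. About 2.1 would do so by chance. The adipocyte markers summed to 430.1 TPM in control c, where the remaining controls lay between 380.1 and 386.5 TPM (gap 0.871). Control c was also the highest library for Cidec and Plin1. Krt77, an epidermal keratin gene, stood at 84.995 CPM in control b, with the rest at 27.2 to 32.0 CPM (gap 0.917). Lce1m, a gene of the cornified envelope, stood at 13.6 CPM in control b, with the rest at 5.42 to 5.77 CPM (gap 0.957). CPM of the 8 droplet coat and fusion genes gave no such gap.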

How the results depend on the processing

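No paired analysis was possible because no replicate number in a column name could be tied to a label. The fold changes of the members, of AABR07066529.1 and of the called genes given by name kept their direction in every alternative run for them. The alternatives were not compared for the other genes given by name, and none was run for the medians and summed TPM of the lists. The count of genes past the threshold was within 1.5 times of 1787 in every alternative that kept all libraries, and ran from 851 to 1898 across the 7 fits that left out one library. It moved by over 1.5 times without control c (851), control d (943), UVB b (1047), control b (1097) or UVB c (1168). Members called lower numbered 3 to 5 across all alternatives and 3 to 4 when one library was left out. Members called higher numbered 0, except for 1 with DESeq2 (Plin5) and 1 without control a (Fitm2), a range of 0 to 1 when one library was left out; the cause was not tested. With expected counts in place of TPM, the log2 difference between UVB and control in each of the 8 ratios moved by less than the spread of the controls. Transcript length largely cancels in that difference, so little movement was possible and the comparison is no check on the ratios. The ratios themselves are per length only in TPM and took other values as counts. Plin1, Plin5 and Cidec rest on few counts (8 to 183 in a library), which limits their precision.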
